A study of Drosophila melanogaster with 11 samples.

Results

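The nuclear-encoded subunits of oxidative phosphorylation were followed in heads of Drosophila melanogaster fed paraquat, nicotine or both. The members were taken by gene symbol alone: symbols beginning with ND- (complex I), Sdh followed by A to D (complex II), UQCR- (complex III), COX followed by a digit (complex IV) or ATPsyn (complex V). The rule picked 80 probe sets among the 18952 on the array, counting probe sets annotated to exactly 1 gene, and these stand for 72 of the 11981 genes so annotated. A further 4 probe sets carry such a symbol beside that of a second gene and are not named. Of the 80 probe sets, 35 belonged to complex I, 6 to complex II, 6 to complex III, 17 to complex IV and 16 to complex V.

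Oxidative phosphorylation is the series of reactions by which mitochondria make ATP. Complex I passes electrons from NADH, and complex II passes them from succinate, to ubiquinone. Complex III hands them on to cytochrome c, and complex IV hands them to oxygen. Complexes I, III and IV pump protons, and complex V, the ATP synthase, uses the returning protons to make ATP. Brain and eye are heavy users of ATP, and complexes I and III are known sources of superoxide. Paraquat is a herbicide that takes up electrons and passes them to oxygen, and complex I is among the enzymes known to reduce it. Nicotine is an agonist of nicotinic acetylcholine receptors. The series is described by its submitters as a model of Parkinson's disease, in which complex I has long been studied.

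Expression was measured on Affymetrix arrays, each with RNA from 20 pooled heads of adult w1118 females. The joint exposure group received nicotine at 0.1 mg/ml throughout, with 5 mM paraquat added to it over the last 6 of 16 days (n = 3 arrays). The paraquat group had no nicotine, and 5 mM paraquat was in its food over the same last 6 days, after 10 days without (n = 2). The nicotine group received 0.1 mg/ml throughout and no paraquat (n = 3), and the control group had plain food throughout (n = 3). All groups carry w1118, a mutation of the white eye pigment gene. Replicate 1 of the paraquat group was left out by the submitters because its RNA was degraded, so the arrays of that group are replicates 2 and 3. The labels name no batch.

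The deposited values are log2 intensities after GCRMA, a normalization that corrects for unspecific binding and sets the arrays to a common distribution, and they ran from 2.11 to 16.2. A probe set was tested where it reached log2 4 on at least 2 of the 11 arrays, which left 9104. In these heads the 4 photoreceptor marker probe sets tested averaged 13.38 to 13.83 in joint exposure, 13.79 to 13.89 in paraquat, 13.34 to 13.98 in nicotine and 13.90 to 13.96 in control arrays. Joint exposure replicate 1 and control replicate 3 stood apart from the other 9 arrays. Their mean correlation with the other arrays was 0.914 and 0.943, against 0.954 to 0.965 for the other 9. The signal of the control transcripts' 3' probe sets minus that of their middle probe sets, a common measure of RNA integrity and of the length of the copies, was 5.73 on joint exposure replicate 1 and 2.06 on control replicate 3, against 3.28 to 4.38 on the other 9. On the 3' minus 5' difference of the same transcripts, control replicate 3 was again lowest, at 5.74, while joint exposure replicate 1, at 9.32, lay within the 8.40 to 10.48 of the other 9. On joint exposure replicate 1, 2 of the 5' probe sets were under log2 4. The same count was found on joint exposure replicate 3 and nicotine replicate 3, with 3' minus 5' differences of 10.48 and 9.73. Whether low 5' signals limit this difference was not tested. Medians over the members are given with and without the array or arrays that a comparison holds of these 2.

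Most respiratory chain subunits gave a strong signal in these heads. Of the 80 member probe sets, 59 (53 genes) passed the filter on low values, and 56 of those 59 averaged at least log2 10, compared with 39.7% of all probe sets tested. Probe sets bind with different strength, so these are counts of signals and do not rank transcripts. By complex, 29 of 35 probe sets were tested for complex I, 3 of 6 for complex II, 5 of 6 for complex III, 10 of 17 for complex IV and 12 of 16 for complex V. The 59 are therefore not the whole set, and the tests below do not cover the 21 others.

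Most of the dim members were duplicated genes. Of 21 member paralogues with a symbol ending in L or in L and a digit, 3 were tested, namely UQCR-11L, COX7AL and COX7AL2. In Drosophila many such duplicates of respiratory subunits are known to be expressed mainly in testis, and the flies here were female. ND-20L, ND-24L, ND-51L1, ND-51L2, ND-B14.5AL, SdhAL, SdhBL, SdhCL, COX6AL and ATPsynCF6L stood at 2.11 on all 11 arrays, the lowest value in the data. UQCR-14L, COX4L, COX5BL, COX6AL2, COX6CL, ATPsynGL and ATPsynbetaL stayed between 2.11 and 3.18 on every array. ATPsynepsilonL reached 4.25 on 1 array and was lower on the other 10. ND-B8, a complex I accessory subunit, stayed between 2.12 and 2.38, and second probe sets of COX7B and COX7C had no value above 3.26. The core genes ND-49, ND-30, ND-24, ND-23, SdhA, UQCR-C1 and UQCR-C2 were not analysed here.

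No member passed the test in any comparison. With paraquat averaged over flies with and without nicotine (5 arrays with paraquat against 6 without), 0 of 59 member probe sets had an adjusted p below 0.05 in limma's moderated test, and 3 of 59 had an unadjusted p below 0.05. Over all probe sets tested, 3.69% were called in that comparison, and 1602 of 9104 had an unadjusted p below 0.05. Differences are given on the log2 scale as exposed minus unexposed. For 51 of the 59 members the paraquat mean was below the mean without paraquat and for 8 it was above, with a median difference of -0.16, beside 4644 of 9104 below and a median of -0.01 over all probe sets tested. The 95% confidence interval lay within 1 log2 unit of 0 for 49 of the 59 (83.1%, against 74.0% of all probe sets tested). A change of more than 2-fold was outside the interval for those members.

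**Figure D1:**
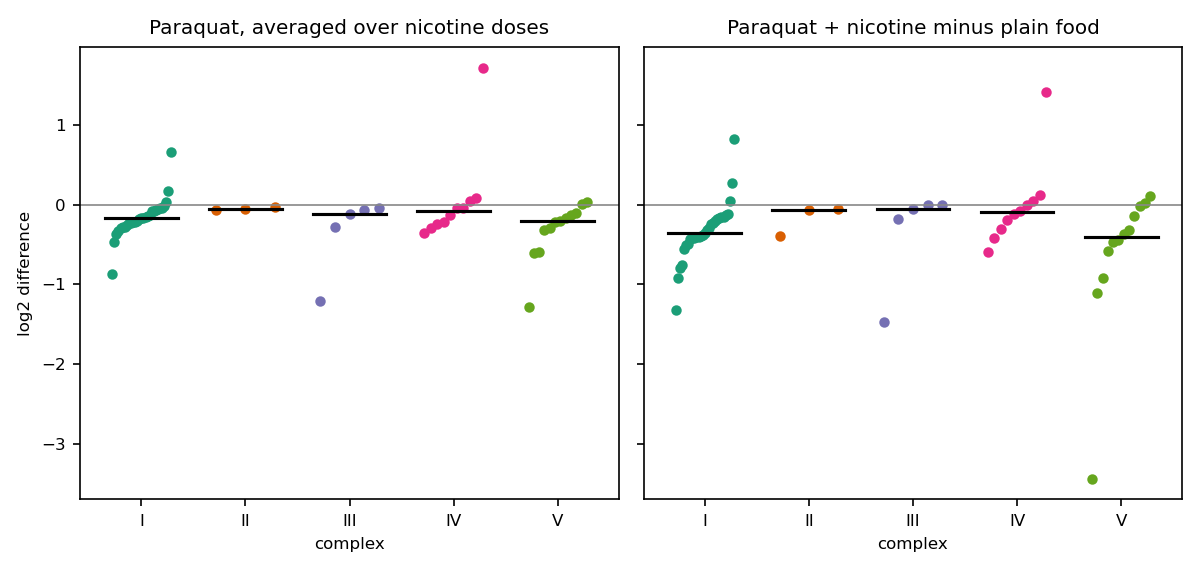
Log2 differences of the 59 tested member probe sets by complex (I to V on the horizontal axis), for paraquat averaged over both nicotine doses and for joint exposure against control. Each point is 1 probe set and each bar is the median of its complex. In the averaged paraquat comparison the medians lie between -0.21 (complex V) and -0.06 (complex II), and the points far above 0 are COX7AL at 1.73 and ND-B12 at 0.67.

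The shift below 0 moved with 2 arrays. The median level of the 59 members was 12.63, 13.11 and 13.01 on the joint exposure arrays, 13.09 and 13.27 on the paraquat arrays, 13.20, 13.15 and 13.42 on the nicotine arrays and 13.00, 13.10 and 13.42 on the control arrays. The joint exposure arrays lay below all 3 nicotine arrays, the highest of them by little, and overlapped with the paraquat and control arrays. Joint exposure replicate 1 was the lowest of all 11 arrays for 43 of the 59 members (72.9%, against 25.9% of all probe sets tested). Control replicate 3 was the highest for 32 of the 59 (54.2%, against 20.9% of all). Within its own group, joint exposure replicate 1 was below the mean of replicates 2 and 3 for 52 of 59 members, by a median of 0.47 (log2 difference -0.47), while the median over all probe sets tested was -0.06. Control replicate 3 was above the mean of its replicates 1 and 2 for 48 of 59 members, with a median of 0.34, against -0.01 over all probe sets tested.

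Without both arrays the averaged paraquat median of the members was -0.02, with 33 of 59 below 0 and 26 above. That value averages comparisons with medians on opposite sides of 0. Without both arrays, the median in paraquat against control heads was 0.08, with 47 above and 12 below, from 2 arrays in each group. In joint exposure against nicotine heads it was -0.09, with 12 above and 47 below. Both medians were smaller in size than the pooled SD between replicates of the members' per-array median, 0.20 over all 11 arrays. The counts are of members measured on the same arrays, which are not replicates. Without joint exposure replicate 1 alone the averaged paraquat median was -0.08. With the 3' minus middle difference as a covariate it was -0.03. These alternatives were chosen after seeing the data, except for leaving out 1 array at a time. The members' range over the arrays also depended on them: the median range was 1.12 log2 units over 11 arrays and 0.47 over the 9 without these 2. On those 9 arrays, 52 of the 59 members varied by less than 1 log2 unit and 30 by less than 0.5. Ranges were not counted over all probe sets tested, so these counts do not set the members apart from other genes. Whether RNA quality, cell composition or the exposures set the low values of joint exposure replicate 1 was not tested.

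**Figure D2:**
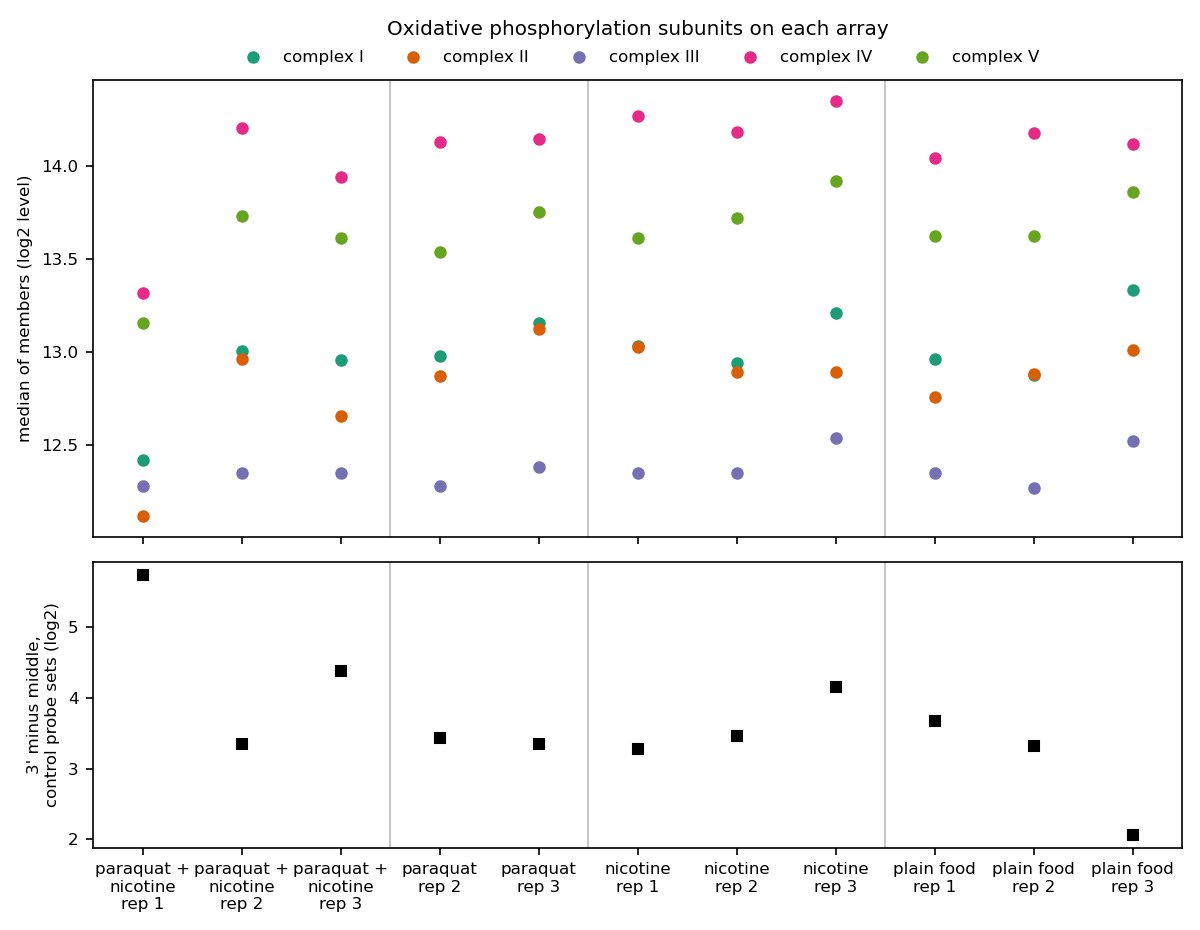
Upper panel, the median log2 level of the tested members of each complex on each of the 11 arrays, in the order joint exposure, paraquat, nicotine and control. Lower panel, the 3' minus middle log2 difference of the control probe sets on the same arrays. Joint exposure replicate 1 has the highest 3' minus middle difference (5.73) and a complex I median of 12.42, and control replicate 3 has the lowest difference (2.06) and a complex I median of 13.33.

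Complex I, the largest complex of the chain, had 29 tested probe sets. In the averaged paraquat comparison 26 of them lay below 0 and 3 above, with a median of -0.17 and 0 called. Without joint exposure replicate 1 the median was -0.05, with 22 below and 7 above. Without both arrays that stood apart it was 0.02, with 11 below and 18 above. For complex I, too, that value averages opposite signs. Without both arrays the median was 0.11 in flies without nicotine (28 above, 1 below), from paraquat replicates 2 and 3 against control replicates 1 and 2. The median complex I levels on those arrays were 12.98 and 13.16 against 12.96 and 12.88. In flies with nicotine the complex I median was then -0.08 (6 above, 23 below). Of its core subunits only ND-75, ND-51 and ND-20 were measured, and none was called. ND-75, the large iron-sulfur subunit of the NADH-oxidizing arm, measured 10.39, 10.54 and 10.55 in joint exposure heads, 10.48 and 10.61 in paraquat heads, 10.40, 10.42 and 10.14 in nicotine heads and 10.32, 10.38 and 11.50 in control heads. All but control replicate 3 lay between 10.14 and 10.61, and the averaged paraquat difference was -0.01 ± 0.21 (SE). ND-51, the flavin-binding subunit that accepts electrons from NADH, differed by -0.07 ± 0.14. ND-20, an iron-sulfur subunit near the ubiquinone site, differed by -0.17 ± 0.17, the same as the complex I median.

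ND-B12, an accessory subunit of the membrane arm and the fly counterpart of human NDUFB3, had the smallest p of the members for paraquat. It measured 12.25, 11.53 and 12.19 in joint exposure heads and 11.58 and 11.999 in paraquat heads, against 11.28, 11.12 and 11.44 in nicotine heads and 11.16, 11.26 and 11.08 in control heads. All 5 arrays with paraquat lay above all 6 without it, and the gap between the lowest of the 5 and the highest of the 6 was small. The averaged difference was 0.67 ± 0.17 (SE, 95% interval 0.30 to 1.04), a 1.59-fold higher level, with an adjusted p of 0.0615 in limma. It was 0.62 ± 0.25 in flies without nicotine (adjusted p = 0.404) and 0.71 ± 0.22 in flies with nicotine (adjusted p = 0.241), both from limma. ND-B12 ran against the other members on joint exposure replicate 1, where it had its highest value. Leaving out joint exposure replicate 2, its lowest array with paraquat, gave 0.78 with an adjusted p of 0.0113 in limma. That fit called 586 of all 9104 probe sets, against 336 with all arrays. Leaving out joint exposure replicate 1 and control replicate 3 gave 0.58 with an adjusted p of 0.130.

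Among members, ND-B12 and COX7AL alone separated all 5 arrays with paraquat upward from all 6 without, 2 of 59, beside 4.17% of all probe sets tested. No member separated them downward (0 of 59, beside 1.99% of all).

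ND-B17 and ND-ASHI, the other complex I members named by the smallest p for paraquat averaged, had larger errors than ND-B12. ND-B17, the counterpart of human NDUFB6, is measured by a pair of probe sets. On the first (1630062_a_at) it measured 7.98, 10.27 and 9.48 in joint exposure heads, 9.97 and 10.14 in paraquat heads, 10.47, 9.94 and 11.01 in nicotine heads and 9.82, 10.27 and 11.61 in control heads. The lowest value was again joint exposure replicate 1 and the highest control replicate 3, and the difference of -0.87 ± 0.45 had an adjusted p of 0.368 in limma. The second probe set (1631318_at) gave -0.22 ± 0.18. ND-ASHI, the counterpart of human NDUFB8, differed by -0.37 ± 0.23 for paraquat averaged. ND-ACP, the mitochondrial acyl carrier protein that also sits in complex I, has 3 probe sets, which gave -0.13, -0.04 and -0.28, all within 2 standard errors of 0. ND-MLRQ, placed in complex I by its symbol and named for its high level, stayed between 14.89 and 15.08 on all 11 arrays. It differed by 0.04 ± 0.10. ND-B14.5B, a small accessory subunit, lay between 12.63 and 14.21, with the lowest value on joint exposure replicate 1. ND-18, an accessory subunit of the peripheral arm, lay between 8.90 on joint exposure replicate 1 and 11.87 on control replicate 3, and its difference was -0.33 ± 0.39.

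Complex II, succinate dehydrogenase, links the citric acid cycle to the chain and showed no difference beyond its errors. SdhB, the iron-sulfur subunit, measured 12.12, 13.36 and 12.66 in joint exposure heads, 13.23 and 13.21 in paraquat heads, 13.03, 12.97 and 12.89 in nicotine heads and 12.76, 13.03 and 13.52 in control heads. The joint exposure values spanned those of both other exposed groups, and the averaged paraquat difference was -0.07 ± 0.23. The membrane anchors SdhC and SdhD differed by -0.03 ± 0.18 and -0.06 ± 0.11. All 3 tested probe sets had 95% intervals within 1 log2 unit of 0, and their median was -0.06 with all arrays and 0.10 without the 2 that stood apart.

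In complex III, all 5 tested probe sets lay below 0 for paraquat averaged, with a median of -0.12 and 0 called. Without the 2 arrays that stood apart all 5 were still below 0, with a median of -0.04. UQCR-6.4, a small subunit, had nearly the same value everywhere: 14.26, 14.25 and 14.26 in joint exposure heads, 14.22 and 14.27 in paraquat heads, 14.24, 14.36 and 14.38 in nicotine heads and 14.24, 14.27 and 14.25 in control heads. UQCR-14, the ubiquinol-cytochrome c reductase binding protein, differed by -0.12 ± 0.12. UQCR-11, the hinge protein, was scattered, between 9.22 and 11.39, and differed by -0.27 ± 0.42. UQCR-11L, its duplicate, was dim and had an unadjusted p of 0.0452 by limma. It measured 5.04, 6.52 and 5.51 in joint exposure heads and 6.41 and 4.92 in paraquat heads, against 5.52, 6.33 and 7.97 in nicotine heads and 6.27, 7.33 and 7.90 in control heads. The groups overlapped, and the difference of -1.21 ± 0.52 had an adjusted p of 0.270 in limma.

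Complex IV, cytochrome c oxidase, had 10 tested probe sets, 7 below and 3 above 0 for paraquat averaged, with a median of -0.08, and 7 below and 3 above with a median of -0.07 without the 2 arrays that stood apart. COX4, a regulatory nuclear subunit, measured 14.81, 14.80 and 14.87 in joint exposure heads and 14.71 and 14.82 in paraquat heads, against 14.73, 14.71 and 14.89 in nicotine heads and 14.71, 14.66 and 14.74 in control heads. Its averaged difference was 0.05 ± 0.10. COX5A and COX5B, also nuclear structural subunits, differed by -0.29 ± 0.19 and -0.12 ± 0.12. COX7C, a small membrane subunit, measured 13.34 on joint exposure replicate 1 and between 14.44 and 14.90 on the other 10 arrays, and its difference was -0.35 ± 0.24. COX8 differed by -0.22 ± 0.15.

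COX7AL, a duplicate of subunit 7A, had the largest upward estimate of any member. It measured 5.42, 5.34 and 7.54 in joint exposure heads and 6.08 and 7.45 in paraquat heads, against 4.61, 4.99 and 4.61 in nicotine heads and 5.17, 4.95 and 3.92 in control heads. Every array with paraquat was above every array without it, though joint exposure replicates 1 and 2 exceeded the highest control array by little. The averaged difference was 1.73 ± 0.46 (SE, 95% interval 0.70 to 2.75), or 3.31-fold, with an adjusted p of 0.0755 in limma. Without joint exposure replicate 2 it was 1.92 with an adjusted p of 0.0463 in limma, and without paraquat replicate 3 it was 1.38 with an adjusted p of 0.355. Its levels lay near the lower end of the scale, and control replicate 3 was under the log2 4 limit. COX7A itself, which the rule also takes in, differed by -0.04 ± 0.10, and COX7AL2 by 0.09 ± 0.15. The testis marker list, of which 3 of 7 probe sets were tested, had 0 called for paraquat averaged, and its mean level was 4.85 to 5.76 in joint exposure, 4.82 to 5.26 in paraquat, 4.98 to 5.10 in nicotine and 4.55 to 5.43 in control arrays.

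**Figure D3:**
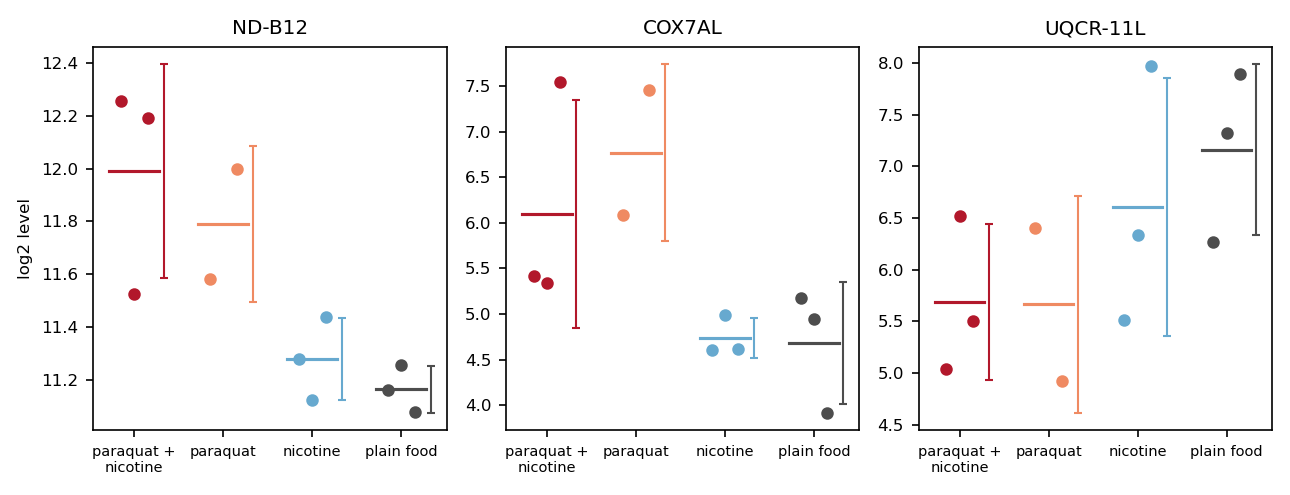
Log2 levels of ND-B12, COX7AL and UQCR-11L on each array, by group from joint exposure on the left to control on the right. Points are arrays, horizontal lines are group means and vertical bars are 1 SD (n = 3, 2, 3 and 3). For ND-B12 and COX7AL the 5 points with paraquat lie above the 6 without it, while the UQCR-11L points overlap.

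Complex V, the ATP synthase, had 12 tested probe sets, 10 below and 2 above 0 for paraquat averaged, with a median of -0.21 and 0 called. The median was -0.13 without joint exposure replicate 1, and -0.04 without both arrays that stood apart, with 9 below and 3 above. ATPsynbeta, the catalytic subunit, shows how far probe sets of 1 gene can part. Its probe set 1630984_at measured 13.73, 13.86 and 13.95 in joint exposure heads, 13.75 and 13.86 in paraquat heads, 13.63, 13.89 and 14.00 in nicotine heads and 13.83, 13.72 and 13.66 in control heads, a difference of 0.04 ± 0.11 for paraquat averaged. Its probe set 1633673_a_at measured 3.28, 9.35 and 6.14 in joint exposure heads, 9.11 and 8.94 in paraquat heads, 9.20, 9.28 and 5.96 in nicotine heads and 8.04, 9.16 and 11.90 in control heads. That is the widest span of any tested member, and the difference of -1.28 ± 1.16 had an adjusted p of 0.628 in limma. The lowest value was on joint exposure replicate 1 and the highest on control replicate 3.

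ATPsyngamma, the rotating central stalk, showed the same split. Probe set 1632838_at stayed between 13.63 and 14.25 on all arrays and differed by -0.11 ± 0.12. Probe set 1627018_s_at measured 11.30, 12.94 and 12.16 in joint exposure heads, 12.55 and 12.75 in paraquat heads, 12.90, 12.76 and 13.12 in nicotine heads and 12.60, 12.75 and 13.79 in control heads, and differed by -0.60 ± 0.32 (adjusted p = 0.374 in limma). ATPsyndelta, another central stalk subunit, differed by -0.61 ± 0.35, and ATPsynO, which ties the stalk at the side to the catalytic head, by -0.22 ± 0.18. ATPsynF, a small subunit of the membrane part, stayed between 14.51 and 14.78 and differed by 0.01 ± 0.10. Probe sets ending in s_at hold probes that other transcripts may share, so their values are less certain to belong to the named gene.

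**Figure D4:**
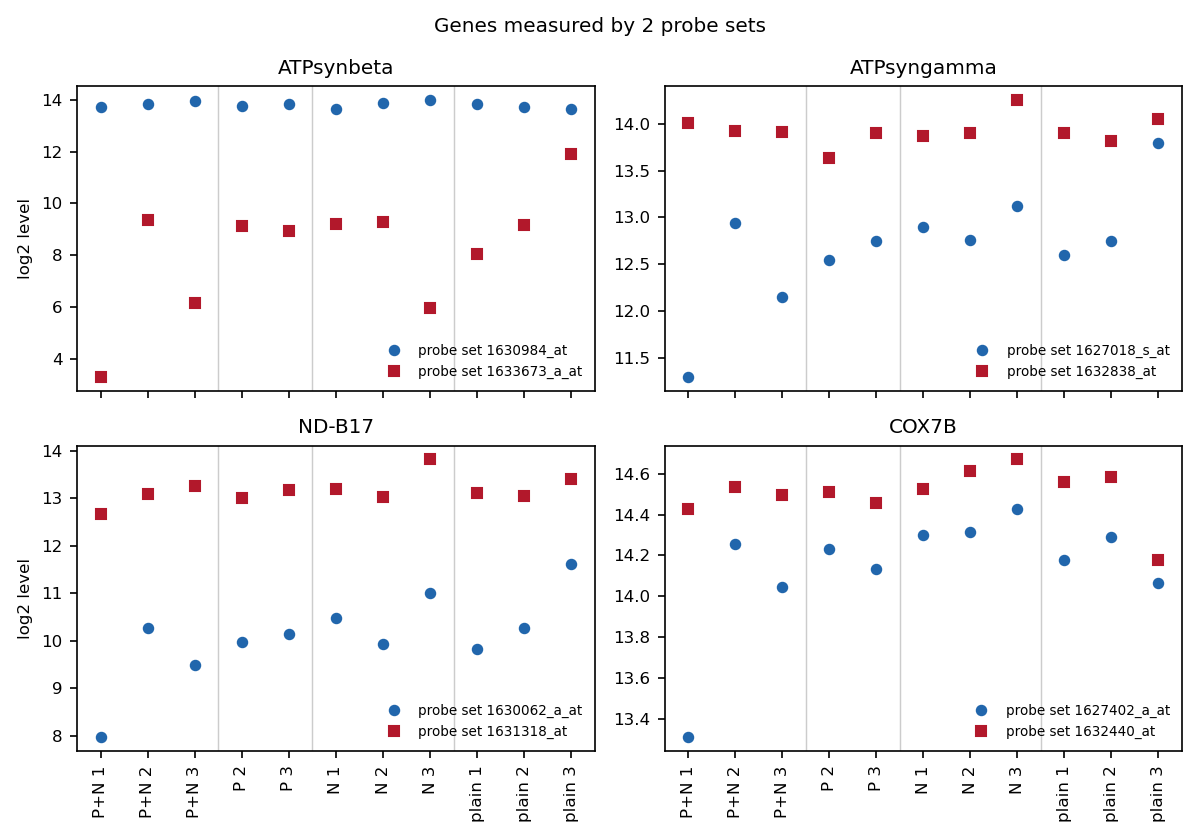
Log2 levels on each array for 4 genes measured by 2 tested probe sets each (ATPsynbeta, ATPsyngamma, ND-B17 and COX7B). On the horizontal axis P+N is joint exposure, P is paraquat, N is nicotine and plain is control, each with its replicate number. In ATPsynbeta, 1 probe set spans 3.28 to 11.90 and the other 13.63 to 14.00.

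Split by nicotine, the members' median paraquat difference was -0.05 in flies without it and -0.25 in flies with it. In paraquat against control heads 0 of 59 members were called by limma (0.341% of all probe sets tested), 2 had an unadjusted p below 0.05, and the median was -0.05 with 40 below and 19 above. Over all probe sets tested 960 had an unadjusted p below 0.05 and the median was 0.01. Without control replicate 3 the members' median turned to 0.08, with 47 above and 12 below. In joint exposure against nicotine heads 0 of 59 were called (0.45% of all), 1 had an unadjusted p below 0.05, and the median was -0.25, with 51 below and 8 above, beside -0.02 over all. Without joint exposure replicate 1 that median was -0.09, with 47 below and 12 above. The difference between these 2 paraquat effects, the interaction, had 0 of 59 called by limma (0% of all), 0 with an unadjusted p below 0.05, beside 112 of all probe sets, and a median of -0.20, beside -0.05 over all. The interaction lay below 0 for 52 of 59 members and above for 7, beside 5079 of 9104 below over all probe sets tested. Without joint exposure replicate 1 the interaction median was -0.05, with 47 below and 12 above. Without both arrays it was -0.18, with 52 below and 7 above. The 5 members with the smallest interaction p were COX7B (1627402_a_at, -0.48 ± 0.34), ND-B14.5B (-0.67 ± 0.49), ND-B17.2 (-0.57 ± 0.44), COX7C (-0.59 ± 0.47) and ND-13A (-0.51 ± 0.45), each with an adjusted p of 0.9997 in limma.

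Joint exposure against control, the comparison that holds both arrays that stood apart, had the lowest member median at -0.29, with 49 of 59 below 0 and 10 above, beside -0.01 over all probe sets tested. None of the 59 was called by limma (0.33% of all), and 5 had an unadjusted p below 0.05, beside 1501 of 9104 over all. These 5 were ND-B12 (0.82 ± 0.22), ND-ASHI (-0.79 ± 0.31), ATPsyndelta (-1.11 ± 0.47), COX7AL (1.42 ± 0.61) and ATPsynE, a subunit of the ATP synthase membrane part (-0.58 ± 0.26), with adjusted p from 0.152 to 0.296 in limma. ND-ASHI measured 12.43, 13.83 and 13.18 in joint exposure heads, against 13.74, 13.86 and 14.21 in control heads. ATPsyndelta measured 10.38, 12.41 and 11.68 in joint exposure heads, against 12.10, 12.43 and 13.26 in control heads. Both overlapped between the groups and had their extremes on joint exposure replicate 1 and control replicate 3. By complex the median was -0.36 for complex I, -0.06 for II, -0.05 for III, -0.09 for IV and -0.40 for V. The median over all members was -0.10 without joint exposure replicate 1, and without both arrays it was 0.01, with 24 below and 35 above. By complex it was then 0.05 for I, 0.12 for II, -0.002 for III, -0.02 for IV and -0.02 for V, so that complexes I and V no longer lay apart from the rest. Without joint exposure replicate 2 alone, limma called 2 members: ND-B12 at 1.06 (adjusted p = 0.0238) and ND-ASHI at -1.13 (adjusted p = 0.0476). That fit called 381 of all 9104 probe sets, against 30 with all arrays.

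Between joint exposure and control heads, 3 members lay wholly higher in joint exposure (COX4, COX7AL and ND-B12, beside 9.18% of all probe sets tested) and 2 wholly lower (ND-B14 and ND-B22, beside 10.5%). The separation of ND-B14, an accessory subunit of complex I, was small: 13.10, 13.26 and 13.13 in joint exposure heads, against 13.29, 13.36 and 13.33 in control heads, a difference of -0.16 ± 0.13.

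For nicotine averaged over flies with and without paraquat, 0 of 59 members were called by limma (0% of all probe sets tested) and 0 had an unadjusted p below 0.05, beside 336 over all. The median was -0.13, with 46 below and 13 above, beside -0.04 over all. Without the 2 arrays that stood apart it was 0.03, with 37 above and 22 below. In nicotine against control heads the median was 0.00, with 31 above and 28 below, 0 of 59 called by limma (0% of all) and 0 with an unadjusted p below 0.05, beside 179 over all. Without control replicate 3 it was 0.10, with 50 above and 9 below. In joint exposure against paraquat heads it was -0.20, with 48 below and 11 above, 0 called by limma (0% of all) and 0 with an unadjusted p below 0.05, beside 275 over all. It was -0.06 without joint exposure replicate 1, with 43 below and 16 above. The smallest p for nicotine averaged was that of ATPsynbeta on its wide probe set 1633673_a_at (-2.16 ± 1.16, adjusted p = 0.833 in limma), followed by ND-ASHI (-0.42 ± 0.23). SdhB, COX7C and UQCR-11 had the smallest p in complexes II, IV and III.

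Subunits of the same complexes that the symbol rule does not take in gave differences within the range of the members for paraquat averaged. RFeSP, the Rieske iron-sulfur protein of complex III, differed by -0.61 ± 0.45 and had 10.04, 12.36 and 12.03 in joint exposure heads, 12.29 and 12.63 in paraquat heads, 12.46, 12.11 and 12.96 in nicotine heads and 12.07, 12.26 and 13.63 in control heads. Its extremes, too, lay on joint exposure replicate 1 and control replicate 3. Cyt-c1, the cytochrome c1 of complex III, differed by 0.13 ± 0.10 and ox by -0.28 ± 0.19. In complex IV, levy differed by -0.27 ± 0.21 and cype by -0.05 ± 0.11. In complex V, blw, the alpha subunit, differed by -0.02 ± 0.10 and sun, the epsilon subunit, by 0.08 ± 0.11.

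Of the neighbouring pathways, the shuttle that carries electrons from the cytosol into the chain held 1 called gene. The list of bypass and shuttle enzymes had 6 genes, of which 3 (Gpdh1, Dhod and Mdh1) were matched to probe sets. The other genes listed were not measured here. For paraquat averaged 2 of 6 probe sets were called, beside 3.69% of all probe sets tested. Both were lower and both were of Gpdh1, the cytosolic glycerol-3-phosphate dehydrogenase. On 1636311_at it averaged 10.04 ± 0.66 in joint exposure and 9.18 ± 0.33 in paraquat heads, against 11.39 ± 0.22 in nicotine and 11.95 ± 0.42 in control heads (SD). The difference was -2.06 ± 0.25 (SE, adjusted p = 0.00349 in limma), and on 1616608_a_at it was -1.23 ± 0.21 (adjusted p = 0.0130). The other probe sets of Gpdh1 were not called, with -0.62 ± 0.15 (adjusted p = 0.0647) on 1625949_at and -0.36 ± 0.12 (adjusted p = 0.141) on 1634893_at. Dhod, a pyrimidine synthesis enzyme that feeds electrons to ubiquinone, differed by 0.31 ± 0.15 and was not called.

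Mitochondrial ribosomal proteins, which make the subunits encoded in the mitochondrial genome, had 1 of 71 probe sets called, mRpL32, which was higher by 0.66 ± 0.14 (adjusted p = 0.0311 in limma), and their median was -0.06 with 30 above and 41 below 0. Cytosolic ribosomal proteins had 0 of 33 called and a median of -0.15, close to that of the respiratory subunits, with 3 above and 30 below. Citric acid cycle enzymes had 0 of 11 called, with 4 above and 7 below and a median of -0.10. Mitochondrial carriers had 0 of 8 called and a median of -0.24, and the smallest p among them was that of Mpc1, a mitochondrial pyruvate carrier subunit, at -1.03 ± 0.26 (adjusted p = 0.0668 in limma). Genes for regulators of respiration and mitochondrial DNA had 0 of 6 called, all 6 above 0 with a median of 0.12. Among them mtSSB, the mitochondrial single-stranded DNA binding protein, differed by 0.57 ± 0.15 (adjusted p = 0.0695) and Ets97D, the fly counterpart of nuclear respiratory factor 2, by 0.39 ± 0.12 (adjusted p = 0.125), both from limma. Mitochondrial chaperones and proteases had 0 of 8 called and a median of 0.01, and assembly factors 0 of 5 and a median of -0.22.

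Marker lists for other cell types had 0 probe sets called for paraquat averaged, and several had medians farther from 0 than the members. All 6 neuronal probe sets lay below 0, with a median of -0.55, and averaged 7.89 to 8.27 in joint exposure, 8.26 to 8.40 in paraquat, 8.40 to 8.92 in nicotine and 8.55 to 9.19 in control arrays. Muscle markers had a median of -0.06, glial markers -0.24, photoreceptor markers -0.11 and fat body markers -0.56. Digestive tract markers lay above 0 in 5 of 6 probe sets with a median of 1.86. That median was 3.86 in joint exposure against nicotine heads and -0.23, with 5 of 6 below 0, in paraquat against control heads. They averaged 9.61 to 12.57 in joint exposure, 8.11 to 8.39 in paraquat, 5.31 to 9.46 in nicotine and 7.03 to 9.21 in control arrays. The ovary list had 1 probe set tested, that of osk. It measured 7.65 on joint exposure replicate 1 and 7.98 on nicotine replicate 1, and between 2.64 and 3.54 on every other array. In pooled heads fewer cells of a type and less RNA per cell cannot be told apart, and the part of these markers in the members' values was not tested.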

How the data were processed

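The deposited values are log2 intensities per probe set, normalized with GCRMA per the submitters' processing notes. No version is named there. Because GCRMA sets arrays to a common distribution, a change shared by most transcripts could not be seen. After leaving out 183 control probe sets, probe sets at or above log2 4 on at least 2 of 11 arrays were fitted with limma 3.58.1 (R 4.3.3), 1 mean per group and 1 shared spread, with moderated tests and Benjamini-Hochberg adjustment over all 9104. Averaged comparisons weigh both backgrounds equally. Symbols came from the platform annotation, and all 80 members matched RefSeq (Release 6). Sequences were not used here. In data simulated for the averaged paraquat comparison over 9104 probe sets, 70% of changes of 1 log2 unit and 96% of changes of 2 were called. The simulated noise was independent between probe sets, and only brighter probe sets were changed. No simulated array moved many probe sets together, as the 2 that stood apart did. These shares therefore do not give the power for the members here, nor for dim ones such as COX7AL and UQCR-11L. The number of arrays, 11 with 2 in the paraquat group, limits precision, and nothing in the labels says whether replicate pools came from separate cohorts, so p-values measure the spread between these samples.

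Named genes were members called in any comparison, those with the smallest p in each complex and for the interaction and joint exposure, core subunits, genes with several probe sets, paralogues ending in L, and the 2 genes with the smallest p in each pathway list, plus the highest and lowest probe sets of each complex. The members and lists were chosen with earlier results of these data known. Lists are described by counts and medians, without a test.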

Additional observations from a re-analysis of the deposited data

How the results depend on the processing

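The count of 0 members called held in every comparison without the filter on low values, with a filter at log2 6, with centred arrays, with either control probe set covariate and with 1 probe set per gene. For paraquat averaged, a variance trend with a robust prior gave 1 call (ND-B12, adjusted p = 0.0446 in limma), beside 372 of all 9104 probe sets. Array weights gave 2 (ND-B12, 0.0100, and COX7AL, 0.00895), beside 1627 of 9104. For paraquat without nicotine, array weights gave 1 (COX7AL, 0.0492), beside 765 of 9104. The main fit called 336 probe sets for paraquat averaged and 31 for paraquat without nicotine. Leaving out 1 array at a time gave 0 to 2 calls for paraquat averaged, 0 to 1 for paraquat with nicotine and 0 to 2 for joint exposure. Each was highest without joint exposure replicate 2, beside 586, 242 and 381 of all 9104 probe sets called there. Elsewhere leaving out 1 array gave 0. The medians then ran from -0.23 to -0.076 (paraquat averaged), -0.095 to 0.080 (without nicotine), -0.35 to -0.087 (with nicotine), -0.18 to -0.040 (nicotine averaged), -0.40 to -0.10 (joint exposure) and -0.34 to -0.054 (interaction). The joint exposure median was 0.014 with the 3' minus middle covariate and 0.011 without the 2 arrays that stood apart. The cause was not tested. Same-numbered arrays did not deviate together throughout (9 of 15 pairs correlated above 0.1, with a median of 0.16, against 5 of 30 differently numbered pairs, with a median of -0.09), so the numbers were not taken to pair samples. With the replicate number as a replicate block even so, 0 members were called in every comparison. The medians were -0.19 for paraquat averaged, against -0.16 in the main fit, and -0.29 for joint exposure, as in the main fit. For paraquat without nicotine the median was -0.14, against -0.05, with 10 of 59 above 0, against 19. It was -0.13 for the interaction, against -0.20, and -0.09 for nicotine averaged, against -0.13. For paraquat averaged 6 members had an unadjusted p below 0.05 in limma, against 3. Centring moved the median of all probe sets for paraquat without nicotine to -0.10, against 0.01, and left 5 of 59 members above 0, against 19. Fitting only the groups compared was not possible for the averaged comparisons and the interaction, which use all groups.

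No gene whose sign turned was called. For paraquat averaged, array weights gave SdhD 0.0063, ND-51 0.039, ND-75 0.13, SdhC 0.20 and SdhB 0.018. Centring gave ATPsynbeta (1630984_at) -0.032 and COX4 -0.015. The 3' minus 5' covariate gave ATPsynbeta (1630984_at) -0.012, ND-75 0.20 and SdhB 0.097. The 3' minus middle covariate gave ND-ACP 0.023 (1624715_at) and 0.059 (1624776_a_at), ND-51 0.044, ATPsynbeta (1633673_a_at) 0.32, ND-75 0.18, SdhC 0.019 and SdhB 0.21, and for nicotine averaged COX7C 0.071, UQCR-11 -0.058, ATPsynbeta (1633673_a_at) 0.068 and SdhB 0.073. Without the 2 arrays, paraquat averaged gave ND-ACP 0.036 and 0.056 on the same probe sets, ND-51 0.064, ATPsynbeta (1633673_a_at) 0.014, ND-20 0.024, ND-75 0.21, SdhC 0.10 and SdhB 0.18, and nicotine averaged gave UQCR-11 -0.049. Leaving out 1 array turned the paraquat sign of ND-ACP (1624776_a_at, -0.094 to 0.025), COX7AL2 (-0.010 to 0.15), SdhD (-0.12 to 0.0059), UQCR-11 (-0.77 to 0.22), ATPsynbeta (1630984_at, -0.015 to 0.077), ND-51 (-0.14 to 0.0071), ND-75 (-0.11 to 0.18), SdhC (-0.14 to 0.084) and SdhB (-0.23 to 0.078), and the nicotine sign of UQCR-11 (-0.22 to 0.78).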
